A study of Mus musculus with 18 samples.

Results

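The nephron lineage transcription factors described here are 9 genes, Pax2, Pax8, Lhx1, Emx2, Emx1, Wt1, Tfap2b, Irx1 and Tbx2, out of 55421 genes in the deposited tables. They were found in the tables by gene symbol, with no threshold on a measured value. Each symbol matched 1 row of the count table and 1 row of the TPM table, and all 9 genes passed the filter on low counts that left 18754 genes for testing. Over 14 days of culture of freshly isolated kidney tubules, no library had less Pax8 than the day 0 libraries. Pax2, Lhx1, Emx2 and Tfap2b fell within the first day and came back, while Emx1, Irx1 and Tbx2 stayed below day 0 in every culture library. Wt1 was low on day 1, overlapped day 0 on days 2 and 7, and was low on day 14.

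Nephrons form when mesenchyme around the branching ureteric bud turns into epithelium, and the resulting tubule is then patterned into segments from glomerulus to connecting tubule. Pax2 and Pax8 are paired-box factors that act together to set up the nephric duct and the nephron, Lhx1 is a LIM-homeobox factor needed for the duct and for the first patterning of the renal vesicle, and Emx2 is a homeobox factor needed for growth of the ureteric bud. Wt1 is a zinc finger factor of nephron progenitors and podocytes, Irx1 belongs to the Iroquois family that marks the middle part of the developing nephron, Tfap2b (AP-2 beta) is needed for distal tubule cells in mouse, Tbx2 is a T-box repressor known with Tbx3 from the developing mouse ureter, and Emx1 is a relative of Emx2 best known from the forebrain.

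RNA was sequenced from wild type C57BL/6 mouse kidney cells at 6 times, with 3 libraries (replicates A, B and C) on each of days 0, 1, 2, 4, 7 and 14. The cells came from female mice aged 6 weeks. Tubules were released with collagenase, enriched on Percoll, plated on plastic and kept without passage or any added treatment, with fresh medium daily for the first 3 days. The labels call the replicates biological without saying whether separate mice or cultures stand behind them, so the p-values below measure only the spread between these libraries.

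Each library held 23799559 to 37579097 estimated counts. CPM below are the deposited counts scaled to a common library size, after edgeR's TMM adjustment, and they compare days for 1 gene, while TPM also allow genes to be compared. Days were compared with the quasi-likelihood test of edgeR in 1 model of all 18 libraries, with p-values adjusted by Benjamini-Hochberg over all tested genes and a threshold of 0.05 for a call. Without TMM, or with the deposited TPM, which correct for transcript length, the median gene stood higher on every culture day. For day 14 against day 0, the median log2 change of all genes was 0.16 with TMM, 0.72 with library sizes alone and 0.76 with log2(TPM + 1). One library stood apart, replicate C of day 7, whose mean correlation was 0.975 with the day 4 libraries and 0.948 with those of day 14. Replicates A and B of day 7 had 0.952 and 0.953 with day 4, and 0.981 and 0.982 with day 14.

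The label says proximal tubule, and the day 0 libraries held proximal tubule markers at a summed 10500 to 13000 TPM. They also held 1640 to 2050 TPM of thick ascending limb markers, 684 to 891 TPM of distal convoluted tubule markers, 657 to 990 TPM of principal cell markers and 151 to 201 TPM of podocyte markers, so RNA of other nephron segments was present in the starting material. In these bulk libraries, fewer cells of a type and less RNA per cell cannot be told apart, which holds for every change given below.

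All 9 factors differed among the 6 days, as did 89.8% of the tested genes, so a difference as such does not set them apart. On day 1 against day 0, 8 of the 9 were lower and only Pax8 was higher, while 37.1% of all tested genes were lower and 33.1% were higher. On day 2 against day 0, 6 were lower and 1 higher, beside backgrounds of 35.3% and 38.9%. On day 4 against day 0, 6 were lower and 2 (Pax2 and Pax8) higher, beside 36.8% and 38.1%. On day 7 against day 0, 4 were lower and 3 higher, beside 32.1% and 37.6%. By day 14 against day 0, 5 were lower and 3 (Pax2, Pax8 and Emx2) higher, beside 32.1% and 37.4%. The median log2 change of the 9 factors against day 0 was -2.63 on day 1, -1.31 on day 4 and -0.77 on day 14, with -0.01, 0.08 and 0.16 over all genes tested on those days.

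A factor was put down as lost where it was lower on day 14 than on day 0 and not higher on day 14 than on day 1 or day 4. It was put down as regained where a fall on day 1, 2 or 4 was followed by a rise to day 14, and as retained otherwise. By these calls 1 factor was retained (Pax8), 4 were regained (Pax2, Lhx1, Emx2 and Tfap2b, the last still below day 0) and 4 were lost (Emx1, Wt1, Irx1 and Tbx2). Wt1 was put down as lost although its libraries of days 2 and 7 overlapped day 0. Of all tested genes, 53.4% were retained, 24.9% regained (10.4% of all genes while still below day 0) and 21.7% lost. Retained is the class left over, which also takes in genes that rose from day 0, so its share does not count genes that kept their level. Classes were set in every alternative except the fits of only the days compared. Emx2 and the 3 lost factors Emx1, Wt1 and Tbx2 kept their class in all of these alternatives, as did Pax8, whereas the classes of Pax2, Lhx1, Tfap2b and Irx1 moved in some of them, as given with each gene.

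**Figure D1:**
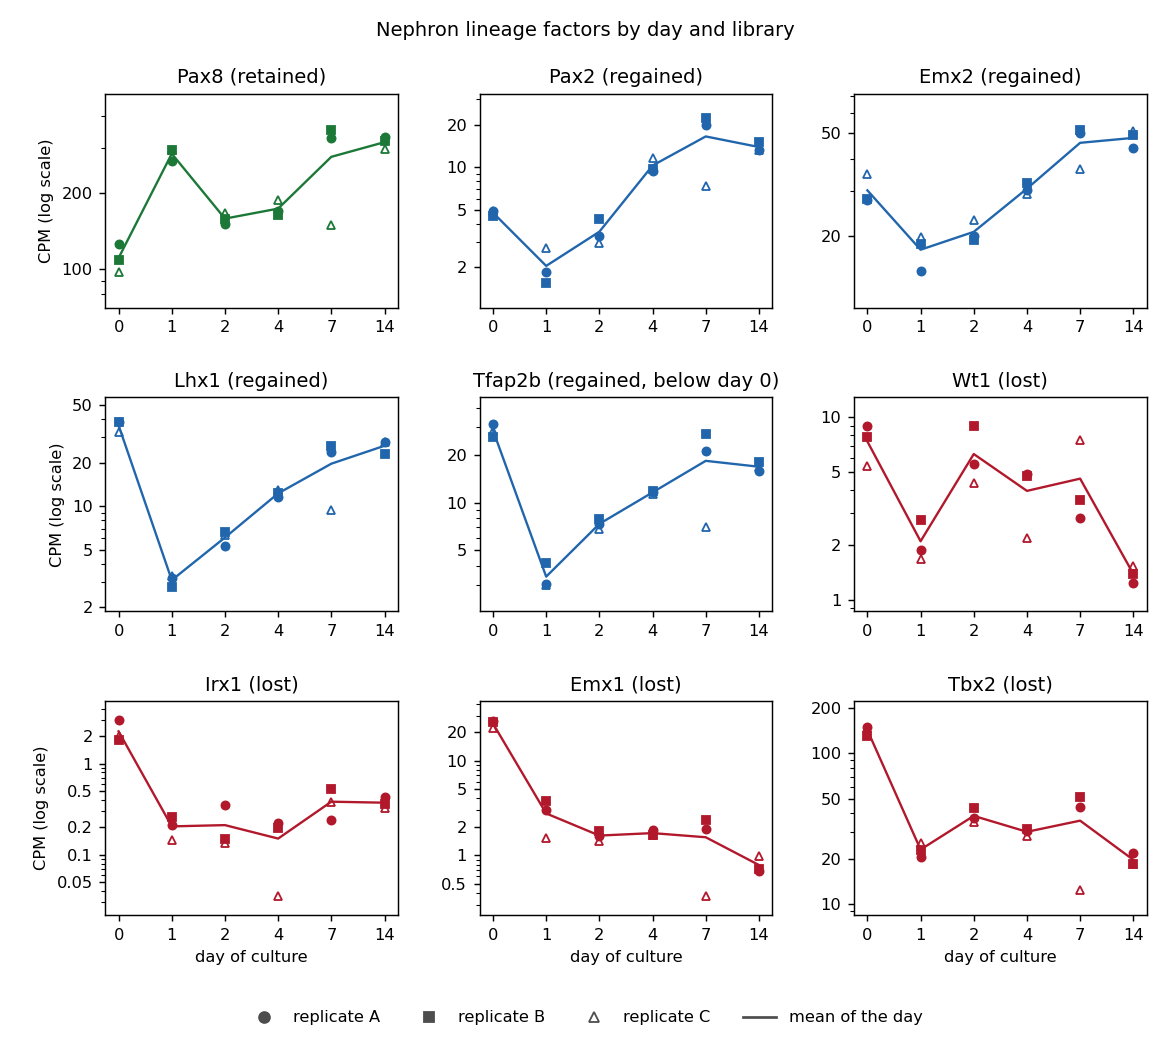
CPM (log scale, with its own range in each panel) of the 9 factors in each of the 18 libraries, by day of culture (days are evenly spaced, not to scale), with the mean of the 3 libraries of a day as a line. Pax8 stayed at or above its day 0 level, Lhx1 and Tfap2b dipped on day 1 and climbed back, Emx1 ended below 1 CPM, and the open triangle of day 7 (replicate C) lay apart from the other 2 libraries for most genes.

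Pax8 was the most abundant of the 9 factors in TPM on every day and rose on the first. Its CPM were 125, 109 and 97.8 on day 0, 266, 293 and 295 on day 1, and 150, 157 and 167 on day 2. It then had 169, 163 and 187 CPM on day 4, 327, 354 and 149 on day 7, and 332, 319 and 297 on day 14. Every culture library lay above every day 0 library, with a first peak on day 1 and a second one on day 14 and in replicates A and B of day 7. Pax8 was 2.57-fold higher on day 1 than on day 0 (log2 change 1.36 ± 0.21 SE, edgeR adjusted p = 3.33e-05) and 2.86-fold higher on day 14 (1.51 ± 0.22, adjusted p = 1.08e-05). The first peak was followed by a drop to 158 ± 8.6 CPM on day 2, against 285 ± 16.3 CPM on day 1 (SD, n = 3), a log2 change of -0.85 ± 0.21 (edgeR adjusted p = 0.00552). The smaller excess of day 2 over day 0 (0.51, adjusted p = 0.0388) was not called without day 0 replicate B or C or day 2 replicate B or C, with adjusted p of 0.0854, 0.13, 0.0665 and 0.0932, and that of day 4 (0.65, adjusted p = 0.0118) was not called without day 0 replicate C (0.56, adjusted p = 0.051). The annotated gene Gm13415 overlaps Pax8 on the opposite strand over 35182 bases and had 2754 counts in all libraries together. Whether counting used the strand is not given in the sources used here, and without strand the reads of the 2 genes cannot be told apart.

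Pax2, the partner of Pax8, dipped on day 1 and then climbed to 2.89-fold its day 0 level by day 14. In CPM the libraries held 4.92, 4.57 and 4.93 on day 0, 1.84, 1.54 and 2.72 on day 1, and 3.31, 4.33 and 2.96 on day 2. Day 4 gave 9.43, 9.78 and 11.7 CPM, day 7 gave 19.9, 22.2 and 7.39, and day 14 gave 13.3, 15.1 and 13.3. No library of days 4, 7 or 14 fell within the day 0 range, and all day 1 libraries lay under it. The log2 change against day 0 was -1.23 ± 0.33 on day 1 (edgeR adjusted p = 0.00314), 1.10 ± 0.31 on day 4 (adjusted p = 0.00419) and 1.53 ± 0.31 on day 14 (adjusted p = 0.000345). On the log2(TPM + 1) scale the dip was -0.43 and was not called (limma adjusted p = 0.133), and Pax2 then counted as retained.

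The ratio of Pax8 to Pax2 in TPM was 35.3 to 47.2 on day 0, 204 to 322 on day 1, 64.3 to 108 on day 2, 26.7 to 29.8 on day 4, 26.3 to 32.4 on day 7 and 35.3 to 44.2 on day 14. Day 1 did not overlap day 0, with a mean log2 ratio of 8.03 against 5.31 (exact two-sided permutation test, p = 0.1, the smallest that 3 against 3 libraries allow). Day 4 lay wholly below day 0, with 4.81 against 5.31 (exact permutation p = 0.1), and so did the libraries of day 7. Day 14 overlapped day 0, with 5.28 against 5.31 (exact permutation p = 0.6).

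Emx2 and Emx1 moved apart. Emx2 had 27.6, 27.9 and 34.9 CPM on day 0, 14.7, 18.7 and 19.9 on day 1, and 20.1, 19.3 and 23.1 on day 2. It reached 30.3, 32.3 and 29.2 CPM on day 4, 50.2, 51.5 and 36.3 on day 7, and 44, 49.2 and 51 on day 14. The day 1 libraries all lay below day 0 and the day 14 libraries all above it. Emx2 was 1.7-fold lower on day 1 than on day 0 (log2 change -0.76 ± 0.14, edgeR adjusted p = 0.000201) and 1.6-fold higher on day 14 (0.67 ± 0.14, adjusted p = 0.000531). The fall on day 2 (-0.53 ± 0.14, adjusted p = 0.00346) was -0.02 with library sizes alone and 0.08 with log2(TPM + 1), neither of them called.

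Emx1 had 26.5, 25.7 and 22.1 CPM on day 0, 3.04, 3.77 and 1.52 on day 1, and 1.62, 1.83 and 1.41 on day 2. It stayed at 1.84, 1.66 and 1.66 CPM on day 4, 1.92, 2.37 and 0.375 on day 7, and 0.684, 0.712 and 0.977 on day 14. The highest culture library, at 3.77 CPM, lay far below the lowest day 0 library at 22.1 CPM, and the day 14 libraries lay below those of day 4. Against day 0, Emx1 was 8.94-fold lower on day 1 (-3.16 ± 0.42, edgeR adjusted p = 4.98e-06) and 31.1-fold lower on day 14 (-4.96 ± 0.46, adjusted p = 8.74e-08). The further fall on day 14 against day 4 (-1.11 ± 0.45, adjusted p = 0.0492) was not called when any of 13 single libraries was left out, with adjusted p of up to 0.108. Emx1 differed more clearly on day 14 against day 1 (-1.80 ± 0.45, adjusted p = 0.00224).

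Per transcript length, Emx1 was the more abundant of the pair at isolation, with an Emx2 to Emx1 ratio of TPM of 0.638 to 0.927. The ratio was 2.86 to 8.2 on day 1, 9.45 to 12.1 on day 4 and 30.8 to 43.6 on day 14. The mean log2 ratio was 5.21 on day 14 against -0.47 on day 0, with no overlap of the libraries (exact two-sided permutation test, p = 0.1, the smallest possible).

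**Figure D2:**
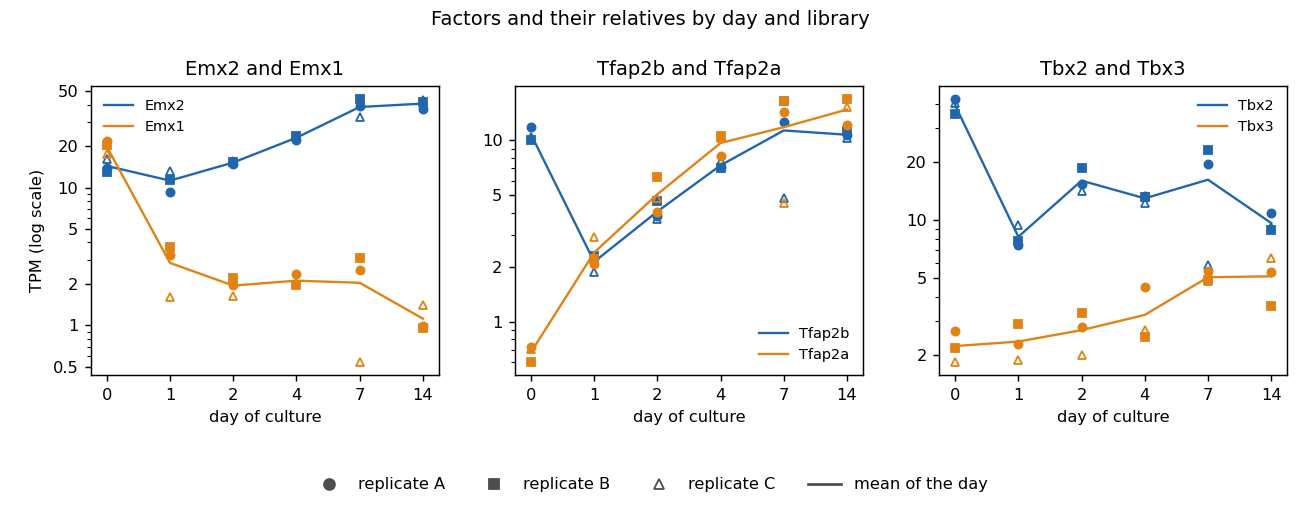
TPM (log scale, ranges differ between panels) of 3 pairs of related factors in each library by day of culture, with the mean of a day as a line. Emx2 crossed above Emx1 within the first day. Tfap2b fell and Tfap2a rose to similar levels on day 1 (means of 2.14 and 2.41 TPM), and both were higher on day 14. The ratio of Tbx2 to Tbx3 was 1.45 to 2.48 on day 14, against 15.9 to 22.1 on day 0.

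Lhx1 showed the deepest dip among the factors that came back. The libraries had 38.3, 38.2 and 32.5 CPM on day 0, 3.18, 2.78 and 3.3 on day 1, and 5.28, 6.68 and 6.3 on day 2. Then came 11.6, 12.3 and 13 CPM on day 4, 23.6, 26.2 and 9.42 on day 7, and 27.7, 23.2 and 27.9 on day 14. Apart from day 7 replicate C, each later day lay above the one before it from day 1 to day 7, and no culture library reached the lowest of day 0. Lhx1 was 11.7-fold lower on day 1 than on day 0 (-3.55 ± 0.28, edgeR adjusted p = 1.64e-08) and then 8.47-fold higher on day 14 than on day 1 (3.08 ± 0.28, adjusted p = 1.02e-07). Whether it returned fully depends on the scale: the day 14 difference from day 0 was -0.47 ± 0.25 (adjusted p = 0.102), 0.09 with library sizes alone and 0.40 with log2(TPM + 1), while it was called lower with DESeq2 size factors (-0.57, adjusted p = 0.0452) and without day 7 replicate C (-0.47, adjusted p = 0.00107). The excess of day 7 over day 4 (0.68, adjusted p = 0.0429) was not called in 16 of the 18 fits that left out 1 library, and it was 1.02 (adjusted p = 4.10e-06) without day 7 replicate C.

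Lhx1 shares a divergent start with the long noncoding gene Lhx1os. On GRCm38, Lhx1 lies on the minus strand at chr11:84518284-84525535 and Lhx1os on the plus strand at chr11:84525660-84535831, 124 bases apart by GENCODE vM21. The stretch between the 2 starts is shown because both genes were measured and did not move alike. It runs from chr11:84525516-84525679 on the minus strand (RefSeq promoter table, GRCm38.p6), 5′ to 3′ towards Lhx1, with the 124 intergenic bases in capitals and 20 bases on either side in lower case.
Lhx1 to Lhx1os interval: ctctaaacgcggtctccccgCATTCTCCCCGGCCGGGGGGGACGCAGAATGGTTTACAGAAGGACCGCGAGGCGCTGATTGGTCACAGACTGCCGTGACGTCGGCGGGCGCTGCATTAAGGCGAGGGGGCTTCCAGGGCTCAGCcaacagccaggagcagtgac

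The capitals are 66.1% G or C with 12 CpG dinucleotides, and hold the motif CCAAT 1 time, on the opposite strand. This motif, searched on both strands, occurred in 37.4% of the 32851 promoter windows of 300 bases in the table. Windows were found for 6 of the 9 factors, 8 windows in all, and 3 of the 8 held CCAAT, in Pax8, Lhx1 and Emx2. The homeodomain core TAATTA, which reads the same on both strands, was in 1 of the 8 (Emx2) and in 5.29% of all windows. The Lhx1 and Emx2 windows were 65.7% and 64.3% G or C, above the median of 52.7% over all windows, while that of Tfap2b was 48.3%.

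Lhx1os was slower to come back than Lhx1. Its mean ± SD of 3 libraries was 18.3 ± 1.48 CPM on day 0, 2.62 ± 0.756 CPM on day 1 and 0.775 ± 0.0389 CPM on day 2. It was 1.11 ± 0.113 CPM on day 4 and 3.85 ± 0.163 CPM on day 14. Its lowest day was day 2, where Lhx1 had already risen above day 1. Lhx1os was 4.75-fold lower on day 14 than on day 0 (-2.25 ± 0.24, edgeR adjusted p = 4.21e-07). The ratio of Lhx1 to Lhx1os in TPM was 0.674 to 0.743 on day 14 and 0.186 to 0.192 on day 0, with no overlap (exact permutation p = 0.1, the smallest possible).

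Emx2 also has an antisense neighbour, Emx2os, whose annotated span overlaps that of Emx2 by 264 bases on the opposite strand of chromosome 19. Emx2os averaged 6.86 ± 0.131 CPM on day 0 and 1.94 ± 0.344 CPM on day 1, then 5.2 ± 0.565 CPM by day 4 and 8.25 ± 0.309 CPM by day 14 (SD, n = 3). It was lower on day 1 than on day 0 (-1.83 ± 0.18, edgeR adjusted p = 2.23e-07) and higher on day 14 than on day 4 (0.66, adjusted p = 0.00396), the directions that Emx2 also took. The TPM ratio of Emx2 to Emx2os was 21.3 to 24.9 on day 1 and 9.56 to 12.4 on day 0, again without overlap (exact permutation p = 0.1). Reads in the shared bases cannot be told apart without strand. Wt1os, 18 bases from Wt1, had 79 counts in all libraries together and was not tested.

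**Figure D3:**
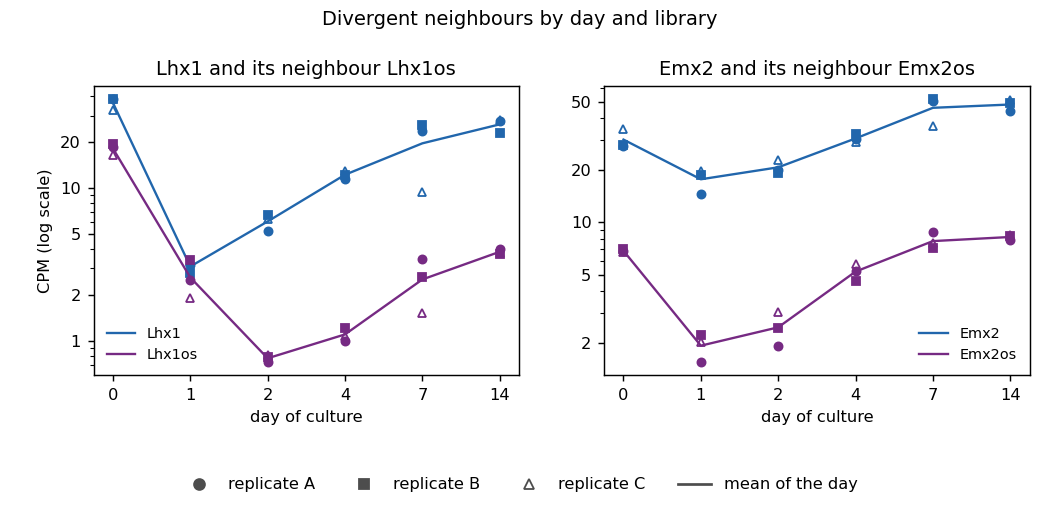
CPM (log scale) of Lhx1 with Lhx1os and of Emx2 with Emx2os in each library by day of culture, with the mean of a day as a line. By mean, Lhx1 was lowest on day 1 and Lhx1os on day 2, while Emx2 and Emx2os were both lowest on day 1 and highest on day 14. For both of the latter, days 1 and 2 overlapped, as did days 7 and 14. Without replicate C of day 7 the mean of Emx2 was 50.8 CPM on day 7, against 48 CPM on day 14.

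Tfap2b followed Lhx1 closely. It had 31.7, 26.1 and 28.4 CPM on day 0, 3.08, 4.15 and 3.01 on day 1, and 7.32, 7.88 and 6.87 on day 2. There followed 11.7, 11.9 and 11.3 CPM on day 4, 21.1, 27.1 and 7.05 on day 7, and 15.8, 18 and 16.9 on day 14. Only day 7 replicate B reached the day 0 range. Tfap2b was 8.44-fold lower on day 1 than on day 0 (-3.08 ± 0.33, edgeR adjusted p = 6.12e-07) and 4.96-fold higher on day 14 than on day 1 (2.31 ± 0.33, adjusted p = 1.40e-05). Its shortfall on day 14 against day 0 (-0.77 ± 0.30, adjusted p = 0.034) was -0.21 with library sizes alone and -0.01 with log2(TPM + 1), neither called. It was also not called without day 0 replicate A or C, day 2 replicate A, or day 14 replicate A, B or C, with log2 changes of -0.69, -0.78, -0.69, -0.64, -0.73 and -0.69. Over the 18 libraries, Lhx1 and Tfap2b were the most alike of the 36 pairs of factors, with a root mean square difference of 0.352 between their centred log2 CPM profiles.

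Its relative Tfap2a (AP-2 alpha) went the other way at the start. Tfap2a averaged 1.59 ± 0.157 CPM on day 0 and 5.27 ± 1.13 CPM on day 1, then 15.7 ± 1.83 CPM by day 4 and 22.6 ± 3.8 CPM by day 14 (SD, n = 3), and was 14.3-fold higher on day 14 than on day 0 (3.83 ± 0.39, edgeR adjusted p = 2.69e-07). In TPM, Tfap2b stood at 0.665 to 0.883 of Tfap2a on day 14 and at 14.8 to 16.8 times Tfap2a on day 0. The mean log2 ratio was -0.45 on day 14 against 3.99 on day 0, without overlap (exact permutation p = 0.1, the smallest possible).

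Wt1 varied widely between libraries of a day. Its CPM were 8.95, 7.78 and 5.39 on day 0, 1.87, 2.74 and 1.67 on day 1, and 5.54, 8.96 and 4.38 on day 2. Day 4 had 4.9, 4.78 and 2.18 CPM, day 7 had 2.8, 3.54 and 7.5, and day 14 had 1.24, 1.39 and 1.53. Days 1 and 14 were low in all 3 libraries, and days 2 and 7 overlapped day 0. Wt1 was 3.53-fold lower on day 1 than on day 0 (-1.82 ± 0.40, edgeR adjusted p = 0.000747), 3.01-fold higher on day 2 than on day 1 (1.59 ± 0.40, adjusted p = 0.00571), and 5.31-fold lower on day 14 than on day 0 (-2.41 ± 0.41, adjusted p = 7.11e-05). The day 4 fall against day 0 (-0.90, adjusted p = 0.044) was -0.41 with library sizes alone and -0.13 with log2(TPM + 1), and it was not called when any of 8 single libraries was left out. Replicate C of day 7, the highest of its day, set the day 7 mean, and without it the day 7 change against day 0 was called lower (-1.22, adjusted p = 0.0067, against -0.68, adjusted p = 0.122, with all libraries). The fall on day 14 against day 7 (-1.73 ± 0.41, adjusted p = 0.0123) was -1.19 (adjusted p = 0.0417) without that library and was not called without day 14 replicate A (-1.68, adjusted p = 0.0518).

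Podocyte markers are given beside Wt1, which podocytes express. Of 9 podocyte markers, 7 were lower and 1 higher on day 14 than on day 0, and their summed level was 163 to 186 TPM on day 14 and 151 to 201 TPM on day 0. The marker that rose, Cdkn1c, a cell cycle inhibitor, made up much of the later sum, with 106 ± 13.2 TPM on day 14 and 36.9 ± 8.62 TPM on day 0. Nphs1, which codes for the slit diaphragm protein nephrin, averaged 0.47 ± 0.0773 CPM on day 14 and 5.87 ± 1.76 CPM on day 0 (SD, n = 3). Ptpro, a podocyte phosphatase and one of the 3 genes closest to Wt1 in profile, had mean levels of 31.5 CPM on day 0, 10.6 CPM on day 1, 37.1 CPM on day 2 and 5.52 CPM on day 14. Ptpro was named for that closeness, and the markers did not share its rise on day 2 as a set. On day 2 against day 1, 2 of the 9 were higher and 2 lower, beside 17% and 17.5% of all tested genes. Nphs1 averaged 1.1 CPM on day 1 and 0.42 CPM on day 2. Of 9 genes described as Wt1 targets, 5 were lower and 2 higher on day 14 than on day 0, beside 32.1% and 37.4% of all tested genes. One of these genes, Areg, which codes for the growth factor amphiregulin, had 10.6 ± 1.07 CPM on day 4 and 0 counts in all 3 day 0 libraries. Mesothelium is another cell type that holds Wt1, and of its 7 markers 4 were tested. On day 14 against day 0, 3 of these were higher and 1 was lower, with a summed 443 to 500 TPM against 41.9 to 49.4 TPM. Different genes made up these sums, since Msln (mesothelin) averaged 447 ± 35.3 TPM on day 14 and 0.113 ± 0.0907 TPM on day 0, whereas Gpm6a averaged 0.34 ± 0.118 TPM on day 14 and 45.3 ± 4.07 TPM on day 0. Bnc1 was at 0 counts on days 0, 1 and 2, and Lrrn4 on every culture day. The part of podocytes or mesothelium in the Wt1 values was not tested.

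Irx1 had the lowest mean TPM of the factors on every day, overlapping Pax2 on day 0, with 152 counts in the 3 day 0 libraries together and 14 to 34 on each culture day. The libraries had 2.98, 1.8 and 2 CPM on day 0 and between 0.0352 and 0.531 CPM in culture, with no overlap. Irx1 was 14.4-fold lower on day 4 than on day 0 (-3.84 ± 0.47, edgeR adjusted p = 1.84e-06) and 5.99-fold lower on day 14 (-2.58 ± 0.42, adjusted p = 4.91e-05). A return by day 14 was at the edge of detection at these counts: the log2 change of day 14 against day 4 was 1.26 ± 0.51 (adjusted p = 0.0507). It was called higher with library sizes alone (1.34, adjusted p = 0.0379), with the replicate letter as a block (adjusted p = 0.0394), and without day 2 replicate A, day 4 replicate A or day 7 replicate A (1.22, 1.63 and 1.26), so that Irx1 then counted as regained but below day 0.

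Irx2, Irx3 and Irx5 of its family also passed the filter. Irx2 averaged 7.3 ± 1.02 CPM on day 0, 1.57 ± 0.388 CPM on day 4 and 4.5 ± 0.344 CPM on day 14 (SD, n = 3). It was lower on day 4 than on day 0 (-2.21 ± 0.33, edgeR adjusted p = 1.44e-05) and higher on day 14 than on day 4 (1.51 ± 0.32, adjusted p = 0.0011), and its day 14 difference from day 0 was -0.70 (adjusted p = 0.0539) but 0.24 with log2(TPM + 1). Leaving out any 1 of the day 2 libraries, or day 7 replicate B or C, gave it a call as lower, at -0.70 to -0.62. Irx3 was 4.46-fold lower on day 14 than on day 0 (-2.16 ± 0.25, adjusted p = 8.86e-07) and Irx5 3.28-fold lower (-1.71 ± 0.40, adjusted p = 0.00116), and neither was called higher on day 14 than on day 4. The TPM ratio of Irx1 to Irx2 was 0.0408 to 0.0995 on day 14 and 0.245 to 0.336 on day 0, without overlap (exact permutation p = 0.1, the smallest possible).

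Tbx2 was second to Pax8 in TPM at isolation and lost most of its level within a day. Its CPM were 150, 130 and 147 on day 0, 20.6, 23 and 25.6 on day 1, and 37.4, 43.2 and 35 on day 2. Later libraries gave 30.8, 31.5 and 28.4 CPM on day 4, 44, 51 and 12.5 on day 7, and 22, 18.6 and 18.6 on day 14. Day 2 lay above day 1 in all 3 libraries, but the highest culture library, at 51 CPM, stayed far below the lowest of day 0, at 130 CPM. Tbx2 was 6.17-fold lower on day 1 than on day 0 (-2.63 ± 0.33, edgeR adjusted p = 2.87e-06) and 7.22-fold lower on day 14 (-2.85 ± 0.33, adjusted p = 1.11e-06). Day 14 and day 1 overlapped, with a log2 change of -0.23 (adjusted p = 0.554) that was 0.21 with log2(TPM + 1).

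Tbx3, its closest relative, was at a steadier level. It averaged 10.8 ± 1.9 CPM on day 0, 9.19 ± 1.95 CPM on day 4 and 12.8 ± 2.39 CPM on day 14 (SD, n = 3). Its change on day 14 against day 0 was 0.25 ± 0.21 (edgeR adjusted p = 0.309), and 0.81 (adjusted p = 0.0017) with library sizes alone. The TPM ratio of Tbx2 to Tbx3 was 1.45 to 2.48 on day 14 and 15.9 to 22.1 on day 0, without overlap (exact permutation p = 0.1). Of the 14 closest relatives of the factors, the 5 named here passed the filter, and Pax5, Lhx5, Irx4, Irx6, Tfap2c, Tfap2d, Tfap2e, Tbx4 and Tbx5 did not.

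Ranked by TPM, the factors changed places. At isolation the order was Pax8 (50.4 ± 8.45), Tbx2 (39.5 ± 3.61), Emx1 (19.8 ± 2.18), Emx2 (14.4 ± 1.69), Lhx1 (11.7 ± 1.05), Tfap2b (10.8 ± 0.885), Wt1 (3.29 ± 0.711), Pax2 (1.26 ± 0.0173) and Irx1 (1.23 ± 0.225), in mean TPM ± SD over 3 libraries. Lhx1 and Tfap2b overlapped, as did Pax2 and Irx1, and the other neighbours did not. On day 14 Pax8 (255 ± 19.7) and Emx2 (40.7 ± 3.05) led, ahead of Lhx1 (15.7 ± 1.42), Tfap2b (10.7 ± 0.47), Tbx2 (9.67 ± 1.03) and Pax2 (6.58 ± 0.613). Wt1 (1.22 ± 0.111), Emx1 (1.12 ± 0.246) and Irx1 (0.32 ± 0.07) came last, the first 2 of these overlapping, as did Tfap2b and Tbx2.

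**Figure D4:**
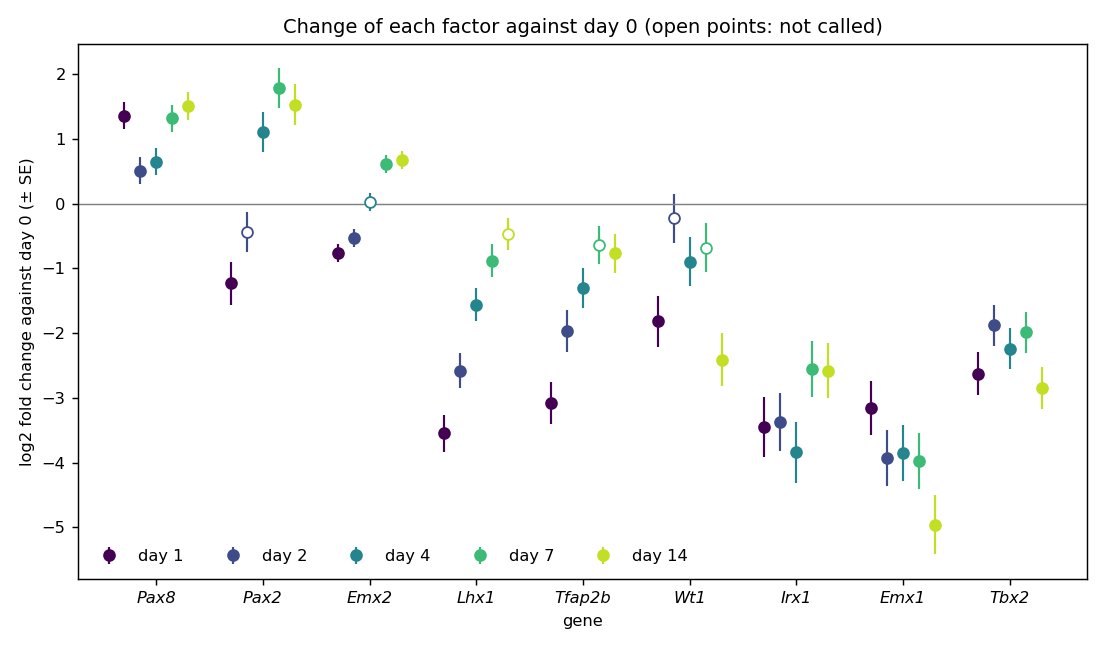
Log2 fold change of each factor on days 1, 2, 4, 7 and 14 against day 0 from edgeR's quasi-likelihood test (points, with bars of 1 SE), where filled points passed an adjusted p of 0.05 and open points did not. Lhx1 and Tfap2b moved upwards from below -3 on day 1, Emx1 moved downwards to -4.96 on day 14, and Pax8 stayed above 0 throughout. All points share the same day 0 libraries.

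Step by step, day 2 against day 1 brought 3 factors up (Lhx1, Tfap2b and Wt1) and Pax8 down, beside 17% of all tested genes higher and 17.5% lower. Tfap2b (1.11, edgeR adjusted p = 0.0147) was not called in that step without day 1 replicate A (1.04, adjusted p = 0.0561). Day 4 against day 2 brought Pax2, Lhx1 and Emx2 up and none down, beside 19.4% and 22.1%. Pax2 changed most in that step, by 1.54 ± 0.31 on the log2 scale (edgeR adjusted p = 0.000927). Day 7 against day 4 brought Pax8, Lhx1 and Emx2 up and none down, beside 22% and 15.9%. The excess of Pax8 in that step (0.68, edgeR adjusted p = 0.0192) was not called without day 4 replicate A or B or day 7 replicate A or B, at 0.66, 0.63, 0.54 and 0.46. Day 14 against day 7 brought none up and Wt1 down, beside 5.07% and 7.46%. Across longer spans, 4 factors (Pax2, Lhx1, Emx2 and Tfap2b) were higher and Emx1 was lower on day 14 than on day 1, beside 31.4% and 31.5%. Pax8, Lhx1 and Emx2 were higher and Emx1 and Wt1 lower on day 14 than on day 4, beside 28.6% and 23.3%.

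Counts of the steps around day 7 depended on day 7 replicate C. Without it, 6 factors were higher on day 7 than on day 4, with Pax2 (1.03), Tfap2b (1.05) and Tbx2 (0.65) added, beside 28% of 19260 genes. The same omission left 5 lower on day 14 than on day 7, with Pax2 (-0.60), Emx1 (-1.43), Tfap2b (-0.52) and Tbx2 (-1.27) beside Wt1, where 9.26% of genes were lower and 5.77% higher. It also gave 5 factors higher on day 2 than on day 1 and 5 higher on day 14 than on day 4. Calls over all genes rose too, to 4085 and 5994 of 19260 genes higher in these 2 comparisons, from 3186 and 5367 of 18754. In that library 7 of the 9 factors were below both other libraries of the day, Wt1 was above both, and Irx1 lay between them. Summed thick ascending limb markers were 7.51 TPM in replicate C, against 43 and 51.7 TPM in A and B, and principal cell markers 61.1 against 383 and 400 TPM.

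For each factor, the genes with the most similar course over the 18 libraries were listed by the smallest root mean square difference of centred log2 CPM among 14957 genes. Closest to Pax2 were Ehf (0.245), an epithelial ETS factor, Gata3 (0.291), a factor of the nephric and collecting ducts, and Sh2d4a (0.295), where the median gene was at 1.24. Closest to Pax8 were Jund (0.211), Mbnl2 (0.245) and Sars (0.246), where the median was 0.808. Lhx1 was nearest to Epha1, Ttc30b and Nipal3 (0.274 to 0.303) and Tfap2b to Stard8, Capn6 and Ccdc160 (0.215 to 0.29). Emx2 had the closest matches, with Tusc3, Pomgnt1 and Stxbp2 at 0.155 to 0.173, but its median gene was also the nearest of all factors, at 0.798. Matches of the lost factors were Robo2 (0.309), Tspan2 and Ptpro for Wt1, Arhgap24 (0.292), Cdo1 and Lypd6 for Tbx2, Cdkl1 (0.449), Car12 and Slc16a7 for Emx1, and Perm1 (0.392), Rhobtb1 and Gm46620 for Irx1. These distances describe libraries that share days, scaling and depth, and come with no test.

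Other transcription factors of kidney development fell early too. Of 20 listed genes, 17 were tested, and 12 were lower and 1 higher on day 1 than on day 0, beside 37.1% and 33.1% of all tested genes. On day 14 against day 0, 6 were lower and 4 higher, beside 32.1% and 37.4%. Their median log2 change was -1.38 on day 1 and 0.02 on day 14, beside -0.01 and 0.16 over all genes tested. Osr2, an odd-skipped factor, averaged 2.41 ± 0.7 CPM on day 4 and 51.2 ± 1.83 on day 0 (SD, n = 3), a log2 change of -4.40 ± 0.53 (edgeR adjusted p = 1.31e-06). Its relative Osr1, known from early kidney mesenchyme, averaged 0.0756 ± 0.0466 and 2.48 ± 0.395 CPM on the same days (-4.94 ± 0.46, adjusted p = 7.62e-08). Sim2 averaged 0.677 ± 0.675 CPM on day 4 and 7.72 ± 2.49 on day 0 (-3.49 ± 1.15, adjusted p = 0.012), and -4.72 without day 4 replicate A, the one high library of that day. Hoxd11, a Hox gene of the metanephric mesenchyme, averaged 3.29 ± 0.198 CPM on day 14 and 1.28 ± 0.595 on day 4 (1.36 ± 0.54, adjusted p = 0.0472), a call that most fits without 1 library did not keep.

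Among 22 tested signals and receptors of kidney development, 7 rose and 6 fell on day 1 against day 0, beside 33.1% and 37.1% of all tested genes. On day 14 against day 0, 13 rose and 3 fell, beside 37.4% and 32.1%. Ret, the receptor of the ureteric bud tip, averaged 4.35 ± 0.124 CPM on day 4 and 0.163 ± 0.121 on day 0 (4.62 ± 0.48, edgeR adjusted p = 2.37e-07). Grem1, a BMP antagonist, averaged 3.25 ± 0.512 and 0.0802 ± 0.0979 CPM on those days (5.37 ± 1.21, adjusted p = 0.000817), with 6.98 when day 0 replicate A was left out. Bmp7, a signal of nephron progenitors and tubules, averaged 79.5 ± 5.43 CPM on day 0 and 18.1 ± 2.57 CPM on day 1, was still at 16.4 ± 2.25 CPM by day 4 and had 105 ± 21.9 CPM on day 14. Wnt9b, the inducer of nephron formation, averaged 4.11 ± 1.92 CPM on day 0, 0.0425 ± 0.0482 CPM on day 4 and 1.52 ± 0.292 CPM on day 14 (day 14 against day 4, 4.98 ± 0.99, adjusted p = 0.000619). Of 7 genes described as targets of Pax2 or Pax8, 5 rose and 1 fell on day 4 against day 0, beside 38.1% and 36.8% of all tested genes, and the counts were the same on day 14, beside 37.4% and 32.1%. They include Ret, Wnt4 (3.62 ± 0.833 CPM on day 4 and 1.23 ± 0.727 on day 0) and the cell cycle factor E2f1 (28.3 ± 0.838 and 4.61 ± 0.0353). On day 14 against day 4, 3 of the 7 were higher and 2 lower, beside 28.6% and 23.3% of all tested genes. E2f1 fell to 2.8 ± 0.192 CPM on day 14 (-3.34 ± 0.43, edgeR adjusted p = 1.47e-05) and Ret to 1.21 ± 0.314 CPM (-1.85 ± 0.37, adjusted p = 0.00061).

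Markers of several nephron segments were lower in culture, where 37.1% of all tested genes were lower on day 1 than on day 0 and 32.1% on day 14. Of 7 thick ascending limb markers, 7 were lower on day 1 than on day 0 and 6 on day 14, with a summed 71.5 to 153 TPM on day 1 and 29.7 to 39.5 TPM on day 14, against 1640 to 2050 TPM on day 0. Of 7 distal convoluted tubule markers, 7 were lower on day 1 and 5 on day 14, with a summed 21.9 to 32 TPM on day 14 against 684 to 891 TPM on day 0 and Pvalb at 0 counts on days 7 and 14. Of 9 principal cell markers, 7 were lower and 1 higher on day 14, with a summed 143 to 204 TPM against 657 to 990 TPM on day 0. Different genes made up these sums. Avpr2 averaged 76.6 ± 5.38 TPM on day 14 and 21.9 ± 7.03 TPM on day 0, whereas Aqp2 averaged 0.49 ± 0.0557 and 294 ± 57.1 TPM. All 9 intercalated cell markers and all 10 proximal tubule markers were lower on day 14, summing to 0.89 to 1.53 TPM against 228 to 381 TPM, and to 8.76 to 16.8 TPM against 10500 to 13000 TPM on day 0. Apart from day 7 replicate C, the summed thick limb markers were lowest on day 4, at 9.5 to 16.4 TPM, when Pax2, Lhx1, Emx2 and Tfap2b were above day 1 in all libraries. The share of these segments in the levels of the factors was not tested.

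Markers outside the tubule were also counted on day 14 against day 0, where 32.1% of all tested genes were lower and 37.4% higher. Of endothelial markers 10 of 10 were lower (27.2 to 30.7 TPM on day 14 against 96.3 to 112 TPM on day 0), of fibroblast and pericyte markers 5 of 9 tested were lower and 3 higher (87.6 to 104 against 33.8 to 40.8 TPM), and of macrophage markers 3 of 7 were lower and 1 higher (29.8 to 44.5 against 17.3 to 50 TPM). Urothelium had 1 of 4 lower and none higher (1.25 to 1.32 against 0.67 to 1.74 TPM).

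**Figure D5:**
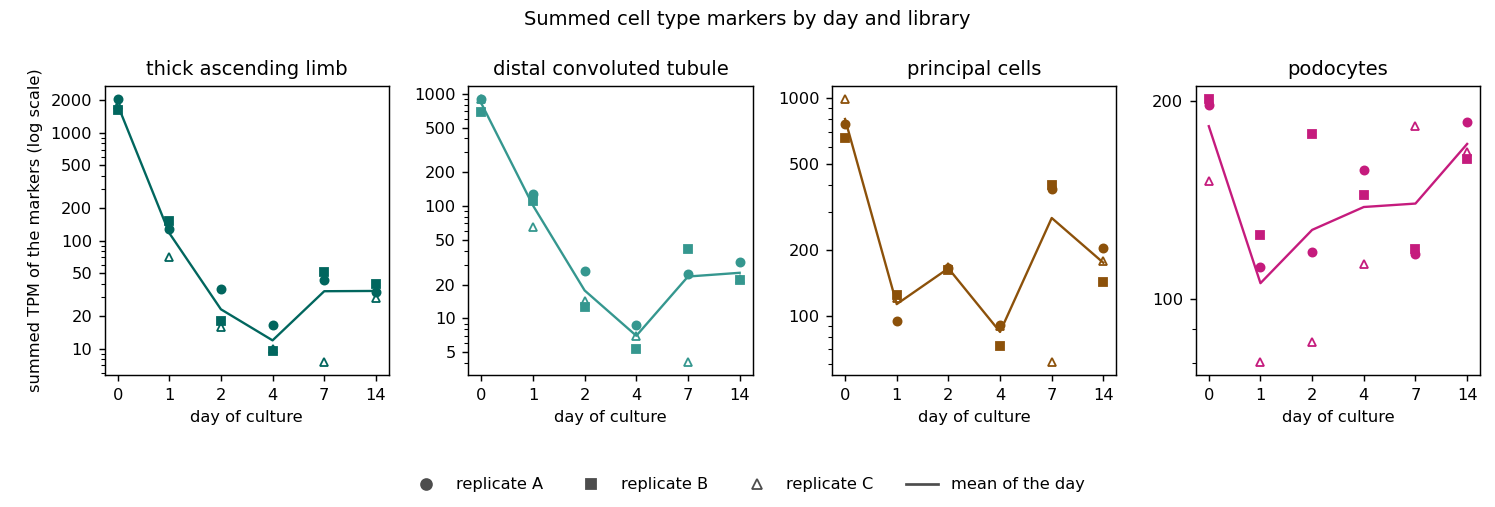
Summed TPM (log scale, ranges differ between panels) of the markers of 4 cell types in each library by day of culture, with the mean of a day as a line. Apart from day 7 replicate C, thick limb and distal convoluted tubule markers were lowest on day 4, principal cell markers were low on days 1 and 4, and podocyte markers summed to 80.3 to 201 TPM over all days, of which Cdkn1c alone averaged 106 TPM on day 14 and 36.9 TPM on day 0.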

How the data were processed

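Poly(A) RNA-seq of 18 libraries was analysed (6 days, 3 replicates each), with day and replicate taken from the labels. The authors deposited estimated counts, as whole numbers, and TPM for each gene and library. RSEM 1.3.3, STAR 2.7.8a, FastQC 0.11.8, cutadapt 2.3 and the build GRCm38 are named in the submitters' processing notes, without their order. For annotation release and strandedness the answer is "not given in the sources used here". Of 55426 entries, 5 reporter transgenes that had 0 counts throughout were left out. A TPM above 0 stood beside an estimated count of 0 in 878 cells of the tables. No column belonged to other samples. The TPM keep no depth, and depth was taken from the counts, 23799559 to 37579097 per library, so a gene at 1 CPM rests on few counts. No pair of libraries of a day agreed within sampling noise (lowest chi-square over degrees of freedom, 6.59).

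Counts were tested with edgeR 4.0.16 in R 4.3.3 (TMM scaling, filterByExpr by day, quasi-likelihood F test, all 6 days in 1 model, Benjamini-Hochberg adjustment over 18754 genes). A gene was called at an adjusted p under 0.05, and the standard error is the absolute log2 change over the root of F. Ratios of TPM were compared with exact two-sided permutation tests (SciPy 1.17.1). Positions came from GENCODE vM21. The scripts were checked on simulated counts for day 14 against day 0, with 50 changed genes at each fold. Of these, 16 were recovered at 1.5-fold, 26 at 2-fold, 35 at 4-fold and 45 at 8-fold. A missing call therefore does not show that a gene was unchanged.

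The 9 factors and the 17 other gene lists (164 genes with the factors) were chosen with earlier results of these data known. Named genes are the 9 factors, their relatives and antisense neighbours that passed the filter, the 3 genes closest in profile to each factor with a mean of at least 1 CPM, the largest called changes of the development and target lists, and the first markers of the cell type lists. Some genes so found are left unprinted, 1 of them as not reported here. Ptpro, Msln, Cdkn1c, Gpm6a, Lrrn4, Bnc1, Pvalb and Avpr2 were named after their values were seen.

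Alternatives left out each library, used library sizes alone, DESeq2 size factors or no filter, added the replicate letter as a block, fitted only the days compared, or used the Wald test of DESeq2 1.42.0. Others used limma 3.58.1 on log2(TPM + 1) for genes of a mean of 0.5 TPM or more, on log2(TPM + 0.1), and on all genes. As to pairing, same-letter libraries of 2 days deviated together with r above 0.1 in 8 of 45 pairs (range -0.17 to 0.42). All 3 pairs passed only for day 4 against day 2, and there the block changed no call of the 9 factors.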

Additional observations from a re-analysis of the deposited data

How the results depend on the processing

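Counts of factors that changed were 0 higher on day 2 against day 0 with DESeq2 size factors, beside 6745 of 18754 tested genes. The Wald test of DESeq2 also gave 0, beside 6804 of 18754. With limma on log2(TPM + 1) and on log2(TPM + 0.1) the counts of factors were 3 lower on day 4 against day 0, 2 lower on day 7 against day 0, 3 lower on day 14 against day 0 and 1 lower on day 14 against day 4, and 2 factors were retained on log2(TPM + 1), with or without the filter. Irx1 did not pass the filter of 0.5 TPM, so the filtered limma fits did not test it and their counts leave it out. On log2(TPM + 1) with the filter, 3950, 3147 and 2891 of 17415 genes were lower on days 4, 7 and 14 than on day 0. The main fit had 6895, 6028 and 6026 of 18754. With library sizes alone and on log2(TPM + 0.1), 6 factors were higher on day 2 against day 1, and with library sizes alone 1 was lower on day 14 against day 4. The 6 stood beside 5492 of 18754 and 5376 of 17415 genes, where the main fit had 3186 of 18754. The 1 lower factor stood beside 3820 of 18754 genes. Without the TPM filter, 0 were lower on day 2 against day 1, 1 was higher on day 7 against day 4, and 0 were lower on day 14 against day 7 or day 4. Over all genes these counts were 1930, 3774, 505 and 2901 of 32398. Fits of only the days compared had 1 lower on day 4 against day 2, 1 higher on day 7 against day 4, 0 lower on day 14 against day 7 and 5 higher on day 14 against day 4, while the Wald test had 2 lower on day 14 against day 7. Over all genes these were 4192 of 16929, 1918 of 16502, 92 of 16547 and 5722 of 16752, and 1879 of 18754 with the Wald test.

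Fits that each left out 1 library gave 0 to 1 higher on day 2 against day 0, 1 to 2 higher on day 4 against day 0, 3 to 5 higher and 1 to 2 lower on day 2 against day 1, 0 to 1 lower on day 4 against day 2, 1 to 6 higher on day 7 against day 4, 0 to 5 lower on day 14 against day 7, and 3 to 5 higher and 1 to 3 lower on day 14 against day 4. Calls over all genes moved too, from 2860 to 5387 higher on day 7 against day 4. On day 14 against day 7 they moved from 763 to 1784 lower.

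Log2 changes turned round as follows, and the cause was not tested. With library sizes alone, they were 0.07 for Pax2 and 0.29 for Wt1 on day 2 against day 0, 0.09 for Lhx1 on day 14 against day 0, 0.04 for Irx1 on day 14 against day 7, 0.03 for Tbx2 on day 14 against day 1, and 0.27 for Tbx3 and 0.10 for Emx2os on day 4 against day 0. With limma on log2(TPM + 1), the same with or without the filter, and on log2(TPM + 0.1), they were 0.09 and 0.14 for Pax2, 0.08 and 0.09 for Emx2 and 0.16 and 0.19 for Wt1 on day 2 against day 0, and 0.40 and 0.42 for Lhx1 and 0.24 and 0.28 for Irx2 on day 14 against day 0. They were 0.07 and 0.09 for Tfap2b on day 14 against day 7, 0.21 and 0.24 for Tbx2 on day 14 against day 1, 0.05 and 0.07 for Tbx3 on day 1 against day 0, and 0.37 and 0.48 for Tbx3 and 0.14 and 0.22 for Emx2os on day 4 against day 0. Emx2 on day 4 against day 0 was -0.04 with DESeq2 size factors and with the Wald test. Values that took both signs in the fits without 1 library ran, on day 4 against day 0, from -0.03 to 0.14 for Emx2, on day 2 against day 1 from -0.50 to 0.32 for Irx1, and on day 4 against day 2 from -0.01 to 0.18 for Emx1 and from -0.84 to 0.19 for Irx1. On day 7 against day 4 they ran from -0.54 to 0.32 for Emx1, from -0.33 to 0.48 for Wt1 and from -0.09 to 0.65 for Tbx2. On day 14 against day 7 they ran from -0.60 to 0.02 for Pax2, from -0.11 to 0.41 for Pax8, from -0.08 to 0.15 for Emx2, from -0.52 to 0.26 for Tfap2b and from -0.28 to 0.29 for Irx1. None of the values in fits without 1 library that are given here as taking both signs was called with all libraries.

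With the replicate letter as a block, the fit called Irx1 higher on day 7 against day 4 (adjusted p = 0.0459), Tfap2b lower on day 7 against day 0 (-0.72, adjusted p = 0.0404), Tbx3 lower on day 1 against day 0 (-0.48, adjusted p = 0.0442) and Tbx3 higher on day 14 against day 4 (0.49, adjusted p = 0.0477). It did not call Lhx1 on day 7 against day 4 (0.65, adjusted p = 0.063). Of all values of single genes under the alternatives, 3606 kept direction and call, 126 lost the call, 88 gained it and 56 turned round. Depth limits Irx1, with 14 to 34 counts on each culture day, so that the call on its return by day 14 changes with the setting.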

Other observations

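Sim2, a transcription factor of the developing kidney, differed between replicates in culture. The replicate A libraries had 0.98, 1.63, 0.57, 1.25 and 1.31 TPM on days 1, 2, 4, 7 and 14, while replicates B and C lay between 0.1 and 0.2 TPM on those days, and the day 0 libraries had 2.25, 1.2 and 2.34 TPM in A, B and C. Gata3, second closest to Pax2 in profile, had mean levels of 37.1 CPM on day 0, 16.9 CPM on day 1, 69.9 CPM on day 4 and 115 CPM on day 14.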
